A study of Mus musculus with 10 samples.

Results

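The genes of Wnt signalling that act outside the cell or at its surface were followed through nascent transcription and H3K27me3 in mouse duodenal organoids. They were chosen by symbol from a fixed list of 44 genes, all of which were among the 24016 gene symbols of the transcription table: 19 Wnt ligands, 2 genes of ligand secretion, 10 frizzled receptors, 5 co-receptors and 8 secreted antagonists of the Sfrp and Dkk families. Nascent RNA, labelled in nuclei while polymerases run on along the gene (global run-on sequencing, GRO-seq), was available from 2 libraries per medium. H3K27me3, the repressive histone mark that PRC2 (Polycomb repressive complex 2) deposits, came from 1 chromatin immunoprecipitation (ChIP-seq) library per medium. The series title names PRC2 in intestinal homeostasis as the subject.

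The first group was ENRI, which the labels call enterocyte differentiation medium: it contained EGF, Noggin, R-spondin and IWP-2, an inhibitor of the acyltransferase Porcn that blocks Wnt secretion. The second was WENRC, the stem cell medium, which added to EGF, Noggin and R-spondin the ligand Wnt3A and CHIR-99021, an inhibitor of the kinase GSK3 that activates the pathway below the receptors. EGF, Noggin and R-spondin were thus common to both, all organoids grew in Matrigel, and no age, strain or sex of the mice is used here. The ENRI medium both added the secretion inhibitor and left out the ligand and the agonist, so their contributions cannot be told apart. Organoids are cultures of epithelium without the stroma of the gut wall. The label "enterocyte" or "intestinal stem cell" names the intended cell type of a mixed culture.

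Wnt ligands are lipid-modified by Porcn, carried to the cell surface by Wls and bound there by a frizzled receptor together with Lrp5 or Lrp6, which stabilizes β-catenin and switches on target genes. Ror1, Ror2 and Ryk are receptors of β-catenin independent branches. Sfrp proteins bind Wnt ligands outside the cell, whereas Dkk proteins such as Dkk1 bind Lrp5 and Lrp6. In the intestine, Wnt signals from Paneth cells and from the stroma below the crypts maintain the stem cells.

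Most cell type markers went with an epithelial culture, with the exceptions given below. All 10 epithelial markers passed the level at which a gene was called transcribed (0.5 RPKM, reads scaled to transcript length and library size, in at least 2 of the 4 libraries). Epcam had 15.3 and 13.8 RPKM in ENRI and 12.5 and 11.4 RPKM in WENRC, and Vil1, the villin of the brush border, had 10.2 and 16.2 RPKM in ENRI and 7.75 and 6.44 RPKM in WENRC. Of 16 mesenchymal markers 1 passed (Acta2), of 8 immune markers 1 (Cd68), of 6 endothelial markers 0 and of 6 markers of nerve and glia 1 (S100b). Cd68 had 5.25 and 5.47 RPKM in ENRI and 13.1 and 16.5 RPKM in WENRC, where it exceeded both Epcam and Vil1. S100b had 0.803 and 0.906 RPKM in ENRI and 0.796 and 0.564 RPKM in WENRC. Of the markers that did not pass, Csf1r reached 0.482 RPKM in WENRC, Sox10 0.531 RPKM in WENRC and Lyve1 0.770 RPKM in ENRI. Pdgfra, Col1a1, Ptprc and Pecam1 did not exceed 0.049 RPKM in any library, and Foxl1 had 1 read in the 4 libraries together. The 6 enterocyte genes summed to 533 and 719 RPKM in ENRI and 36.1 and 12.4 RPKM in WENRC, and the 4 stem cell genes to 0.73 and 1.65 RPKM in ENRI and 8.97 and 10.5 RPKM in WENRC. The library values are given throughout in the order batch 1, batch 2, the batches being those of the authors' file header. Summed over all 33022 transcripts, the recovered reads were 29128101 and 15787828 in ENRI and 25839484 and 9245915 in WENRC. Reads shared by several transcripts count more than once in these sums. With 1 transcript per symbol the sums were 18368188 and 10245627 in ENRI and 16302292 and 5868922 in WENRC. The pair of ENRI libraries was the less even: on the log2(RPKM + 0.5) scale they differed by more than 2-fold at 8.22% of the 11602 genes tested, against 2.47% for the WENRC pair, and every result that rests on them is given with both values.

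The promoters of 6 members carry the contrasts described below: Wnt4, Wnt16, Fzd5, Fzd7 and Fzd9, for which the difference between media was largest relative to its error, and Wnt3, the only member that the authors' deposited table gives as lower in ENRI at an FDR under 0.05. Each runs 5′ to 3′ on the strand of the gene, from 250 bases before to 50 bases after the RefSeq start in build GRCm38.p6, with every CpG dinucleotide in capitals, since CpG-rich promoters are those on which PRC2 is known to act in mammals. They lie at chr4:137277385-137277684 (plus strand) for Wnt4, chr6:22287977-22288276 (plus) for Wnt16, chr1:64737701-64738000 (minus) for Fzd5, chr1:59481897-59482196 (plus) for Fzd7, chr5:135250998-135251297 (minus) for Fzd9 and chr11:103773925-103774224 (plus) for Wnt3.
Wnt4: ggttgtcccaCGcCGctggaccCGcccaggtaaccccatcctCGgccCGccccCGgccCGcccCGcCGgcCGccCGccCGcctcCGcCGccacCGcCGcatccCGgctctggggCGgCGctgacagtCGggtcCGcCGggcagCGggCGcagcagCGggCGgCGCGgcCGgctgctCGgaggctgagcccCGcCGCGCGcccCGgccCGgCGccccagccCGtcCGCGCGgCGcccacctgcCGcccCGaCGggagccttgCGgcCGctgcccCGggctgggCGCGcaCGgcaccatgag
Wnt16: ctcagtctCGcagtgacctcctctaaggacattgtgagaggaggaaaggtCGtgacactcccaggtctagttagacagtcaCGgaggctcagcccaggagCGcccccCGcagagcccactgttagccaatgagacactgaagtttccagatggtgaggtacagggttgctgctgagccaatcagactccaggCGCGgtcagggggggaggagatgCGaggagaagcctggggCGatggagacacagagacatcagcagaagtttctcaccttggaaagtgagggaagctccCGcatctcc
Fzd5: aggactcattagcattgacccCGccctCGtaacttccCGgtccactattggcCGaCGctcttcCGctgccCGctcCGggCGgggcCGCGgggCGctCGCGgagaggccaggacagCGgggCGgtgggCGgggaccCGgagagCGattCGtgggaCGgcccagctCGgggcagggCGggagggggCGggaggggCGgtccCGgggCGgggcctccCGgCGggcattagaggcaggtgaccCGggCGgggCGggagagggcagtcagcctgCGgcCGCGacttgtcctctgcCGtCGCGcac
Fzd7: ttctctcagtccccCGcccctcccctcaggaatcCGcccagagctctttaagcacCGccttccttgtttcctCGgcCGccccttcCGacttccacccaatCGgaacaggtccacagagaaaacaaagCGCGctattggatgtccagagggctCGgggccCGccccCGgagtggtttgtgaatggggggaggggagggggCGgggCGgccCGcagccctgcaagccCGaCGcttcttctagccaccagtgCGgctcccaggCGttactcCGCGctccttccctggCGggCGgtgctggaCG
Fzd9: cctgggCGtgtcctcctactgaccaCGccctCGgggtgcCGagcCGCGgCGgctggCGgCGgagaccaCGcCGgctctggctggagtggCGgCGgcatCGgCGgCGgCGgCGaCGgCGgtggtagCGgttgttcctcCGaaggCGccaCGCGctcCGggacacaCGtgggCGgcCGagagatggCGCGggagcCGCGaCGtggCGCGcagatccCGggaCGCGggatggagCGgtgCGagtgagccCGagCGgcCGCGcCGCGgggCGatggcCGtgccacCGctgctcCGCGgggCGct
Wnt3: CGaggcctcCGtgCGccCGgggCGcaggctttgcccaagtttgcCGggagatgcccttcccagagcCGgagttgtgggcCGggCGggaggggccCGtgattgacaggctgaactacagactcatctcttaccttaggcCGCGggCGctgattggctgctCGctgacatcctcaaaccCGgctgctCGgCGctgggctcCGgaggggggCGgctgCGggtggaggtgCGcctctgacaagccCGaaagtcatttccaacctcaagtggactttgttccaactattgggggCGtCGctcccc
The 300 bases held 51 CpG in Wnt4, 53 in Fzd9, 38 in Fzd5, 24 in Fzd7, 24 in Wnt3 and 10 in Wnt16. Over the 27 members with a single window in the RefSeq table the median was 27, against 7 over all 32851 windows.

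Of the 44 genes, 17 were transcribed (at least 0.5 RPKM in at least 2 libraries), or 38.6%, beside 48.3% of all symbols. By role, both secretion genes, 7 of 10 frizzled receptors and 4 of 5 co-receptors passed, whereas 3 of 19 ligands (Wnt2b, Wnt4 and Wnt16) and 1 of 8 antagonists (Dkk4) did. In 20 members the mean over the 4 libraries was below 0.1 RPKM, and no library of any of these exceeded 0.239 RPKM. Among 20 genes of unrelated tissues, listed as a floor, 3 passed (15.0%), beside 15.8% of the ligands and 12.5% of the antagonists. They were Opn1sw (1.81 to 4.48 RPKM over the libraries), Tnnt2 (2.20 to 2.53 RPKM) and Krt10 (0.894 to 1.32 RPKM). Passing 0.5 RPKM therefore does not by itself set a ligand or antagonist apart from these floor genes. The members nearest to the level without passing it were Fzd2, which passed it in 1 library (0.507 RPKM in WENRC of batch 2), and Sfrp5, likewise (0.682 RPKM). Ror2 was the nearest inside, with 0.539 RPKM in 1 ENRI library and 0.534 and 0.604 RPKM in WENRC. In bulk libraries such as these, fewer cells of a type and less RNA per cell cannot be told apart.

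**Figure D1:**
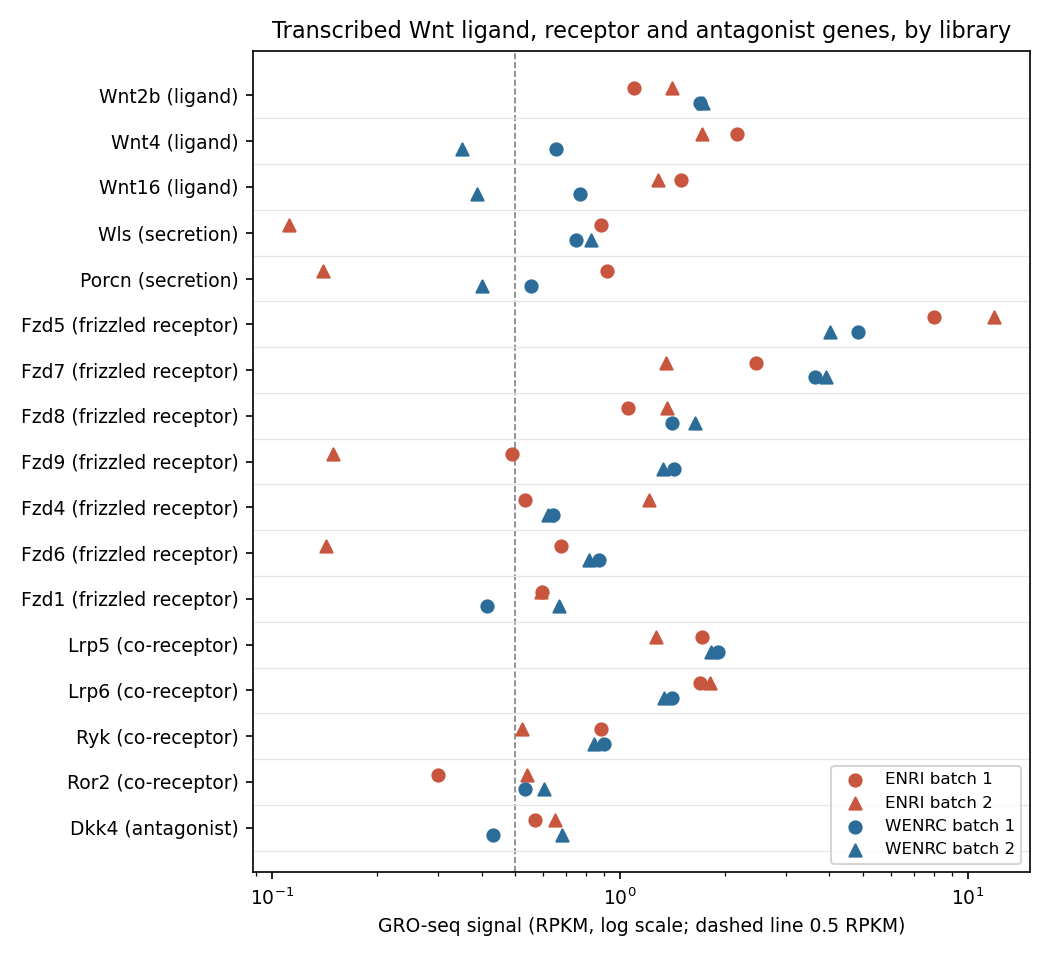
GRO-seq signal (RPKM, log scale) of the 17 transcribed members in each of the 4 libraries, grouped by role, with ENRI in red and WENRC in blue, circles for batch 1 and triangles for batch 2. The ENRI points of Fzd5, Wnt4 and Wnt16 lie right of the WENRC points, those of Fzd7 and Fzd9 lie left, and the ENRI library of batch 2 stands far left for Wls, Porcn and Fzd6.

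Among the 3 transcribed ligands, Wnt4 showed the widest difference between media on the log2(RPKM + 0.5) scale. Wnt4, a ligand known from kidney and female reproductive development, lies in build mm9 on chromosome 4 from 136833550 to 136855416 on the plus strand. It had 2.18 and 1.73 RPKM (1386 and 596 reads) in ENRI and 0.655 and 0.351 RPKM (370 and 71 reads) in WENRC. Both ENRI libraries were above both WENRC libraries, by 3.32-fold in batch 1 and 4.92-fold in batch 2. The fitted log2 change was 1.30 ± 0.21 (SE) with an adjusted p of 0.056 in limma, which missed the threshold of 0.05. It was past the threshold in edgeR's quasi-likelihood test on the recovered reads (log2 change 2.18, adjusted p = 0.042), with the replicate number as a block in edgeR (adjusted p = 0.021) and in DESeq2 (adjusted p = 6.5e-07), and in the authors' deposited table (log2 change 2.25, FDR 4e-05).

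Wnt16, a ligand studied mostly in bone, had 1.497 and 1.29 RPKM in ENRI and 0.767 and 0.389 RPKM in WENRC (chromosome 6, 22238227 to 22248522, plus strand). The groups did not overlap here either. The fold in favour of ENRI was 1.95 in batch 1 and 3.31 in batch 2. The log2 change of 0.83 ± 0.21 (SE) had an adjusted p of 0.075 in limma and 0.063 in edgeR. With the block, edgeR gave 0.044, and DESeq2 gave 0.0048.

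Wnt2b, known as a ligand of stroma and epithelium in the gut, went the other way by a smaller amount, with 1.10 and 1.41 RPKM in ENRI and 1.70 and 1.73 RPKM in WENRC. These values did not overlap, but the log2 change of -0.34 ± 0.14 (SE) was not past the threshold in limma (adjusted p = 0.16), nor in edgeR (0.56). The mesenchymal markers summed to 1.25 and 1.68 RPKM in ENRI and 2.17 and 1.79 RPKM in WENRC. Their part in the Wnt2b signal was not tested. Of the 16, Gli1 and Myh11 were lower in ENRI without overlap and 14 overlapped. Gli1 had 0.0382 and 0.108 RPKM in ENRI and 0.261 and 0.268 RPKM in WENRC. Foxl1 and Pdgfra did not exceed 0.0365 RPKM in any library, whereas Pdgfrb reached 0.314 and Foxf1 0.336 RPKM, both in ENRI of batch 2. Acta2 alone gave 0.838 and 0.615 RPKM of the sum in ENRI and 1.41 and 0.806 RPKM in WENRC.

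The other 16 ligands had means between 0.0061 and 0.295 RPKM over the 4 libraries and were not tested in the main fit. Wnt3, the ligand that mouse Paneth cells are known to supply to stem cells, was low throughout and lower in ENRI. It had 44 and 60 reads (0.0344 and 0.0867 RPKM) in ENRI and 209 and 105 reads (0.184 and 0.259 RPKM) in WENRC. The pooled reads, scaled to the sums over all transcripts, gave a ratio of 0.259 (exact 95% interval 0.205 to 0.324, which covers counting error only). In the authors' deposited table the log2 change was -1.75 with an FDR of 0.019. In limma the adjusted p was 0.0625 with a filter of 10 reads in 2 libraries and 0.19 without a filter. The 5 Paneth cell markers summed to 14.7 and 38.7 RPKM in ENRI and 22.2 and 40.0 RPKM in WENRC, and Defa24 and Defa17 made up most of each sum. Of the 5, Mmp7 alone was lower in ENRI without overlap, with 0.174 and 0.225 RPKM in ENRI and 0.588 and 0.874 RPKM in WENRC, while the other 4 overlapped between media. The part of Paneth cells in the Wnt3 signal was not tested.

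Wnt7a and Wnt7b stood out through a single library. Wnt7b had 474 reads in the ENRI library of batch 1 and 3 in that of batch 2, against 12 and 16 in WENRC. Wnt7a had 297 and 15 reads in ENRI and 17 and 12 in WENRC. Without the ENRI library of batch 1, neither exceeded 0.0373 RPKM in any library. Wnt5a had 9 and 5 reads in ENRI and 1 and 0 in WENRC, a ratio of pooled reads of 10.9 (exact 95% interval 1.66 to 462, counting error only). Wnt1 had 3 and 15 reads in ENRI and 0 and 1 in WENRC, a ratio of 14.1 (2.22 to 586, likewise). In RPKM the media overlapped for Wnt1, at 0.0259 and 0.239 in ENRI and 0 and 0.0272 in WENRC. Neither Wnt5a nor Wnt1 passed the filter of the main fit. Without a filter, limma gave an adjusted p of 0.17 for Wnt5a and 0.58 for Wnt1. The authors' deposited table gives an FDR of 0.082 for Wnt5a and 0.068 for Wnt1. Wnt5b, at 0.247 and 0.211 RPKM in ENRI and 0.38 and 0.343 RPKM in WENRC, was counted over a transcript of 111.8 kb that also contains Fbxl14 on the opposite strand. Whether the counting separated the strands is not stated in the sources used here, so the Wnt5b value is uncertain. Fbxl14 itself had 2.57 and 2.03 RPKM in ENRI and 3.79 and 3.15 RPKM in WENRC. A shorter Wnt5b transcript of 34.7 kb had 0.0416 and 0.0895 RPKM in ENRI and 0.0525 and 0.106 RPKM in WENRC, which overlapped. That of 16.9 kb had 0.0468 and 0.0414 RPKM in ENRI and 0.0826 and 0.141 RPKM in WENRC, which did not. Wnt6 had 0.118 and 0.123 RPKM in ENRI and 0.0749 and 0.129 RPKM in WENRC. Wnt8b had 25 and 12 reads in ENRI and 49 and 16 in WENRC. For Wnt2, Wnt3a, Wnt8a, Wnt9a, Wnt9b, Wnt10a, Wnt10b and Wnt11 no library exceeded 0.152 RPKM.

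The secretion genes were transcribed, and both differed more between the ENRI libraries than between media. Wls, the carrier of Wnt ligands, had 0.88 and 0.111 RPKM (2448 and 168 reads) in ENRI and 0.746 and 0.828 RPKM in WENRC. Porcn, the target of IWP-2, had 0.921 and 0.14 RPKM in ENRI and 0.556 and 0.401 RPKM in WENRC. The media overlapped for both genes. Their change was of opposite sign in the 2 batches, and the limma adjusted p was 0.42 for Wls and 0.96 for Porcn. They were the 2 of 17 tested members whose ENRI libraries differed by more than 2-fold on the log2(RPKM + 0.5) scale. No tested member did so in WENRC.

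The frizzled receptors held the highest levels, and their differences between media went in both directions. Fzd5, a receptor of canonical Wnt signalling in the crypt, was the most transcribed member in every library, with 8.03 and 11.9 RPKM in ENRI and 4.85 and 4.02 RPKM in WENRC (chromosome 1, 64777132 to 64784324, minus strand). It averaged 9.99 ± 2.77 RPKM in ENRI and 4.43 ± 0.593 RPKM in WENRC (SD, n = 2 each). All ENRI values were above all WENRC values, by 1.65-fold in batch 1 and 2.97-fold in batch 2. The log2 change was 1.07 ± 0.28 (SE), with an adjusted p of 0.076 in limma, 0.0502 in edgeR and 0.00061 in DESeq2. The authors' deposited table gives a log2 change of 1.39 and an FDR of 0.016.

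Fzd7, described in mouse as the frizzled receptor of intestinal stem cells, was the second most transcribed in WENRC among the 44 genes. It had 2.46 and 1.36 RPKM in ENRI and 3.64 and 3.91 RPKM in WENRC (chromosome 1, 59538991 to 59543799, plus strand). The groups were apart. The log2 change of -0.87 ± 0.27 (SE) had an adjusted p of 0.096 in limma and 0.16 in edgeR, neither past the threshold. Fzd5 exceeded Fzd7 in ENRI by 8.03 against 2.46 RPKM in batch 1 and 11.9 against 1.36 RPKM in batch 2. In WENRC they were close, at 4.85 against 3.64 RPKM in batch 1 and 4.02 against 3.91 RPKM in batch 2.

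Fzd9 had 0.488 and 0.15 RPKM in ENRI and 1.43 and 1.33 RPKM in WENRC. Its whole signal rests on few reads, 30 and 5 in ENRI and 78 and 26 in WENRC, since the gene is 2.11 kb long (chromosome 5, 135724808 to 135726917, minus strand). The log2 change was -1.23 ± 0.24 (SE), the largest downward one among the tested members, with an adjusted p of 0.058 in limma, 0.10 in edgeR and 0.069 in DESeq2. With either ENRI library left out the limma adjusted p was past the threshold, at 0.012 without batch 1 and 0.048 without batch 2. With 1 ENRI library left, only the WENRC pair informs the spread, and these fits called 5794 and 685 genes in all, so they do not strengthen the result for Fzd9. Fzd2 resembled it at a lower level, with 13 and 6 reads in ENRI and 42 and 17 in WENRC. The ratio of its pooled reads was 0.252 (exact 95% interval 0.142 to 0.428, counting error only), and limma called it (log2 change -0.67, adjusted p = 0.040) only when the filter was 10 reads in 2 libraries.

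The remaining frizzled receptors differed little or unevenly. Fzd8 had 1.06 and 1.36 RPKM in ENRI and 1.41 and 1.65 RPKM in WENRC. Fzd6, a receptor of planar cell polarity, had 0.679 and 0.143 RPKM in ENRI and 0.873 and 0.813 RPKM in WENRC. Fzd4, known for its part in retinal vessels, had 0.532 and 1.21 RPKM in ENRI and 0.64 and 0.621 RPKM in WENRC. None was past the threshold, with limma adjusted p of 0.28, 0.22 and 0.55 for Fzd8, Fzd6 and Fzd4. In Fzd6 and Fzd4 the wide gap was inside ENRI. Fzd1 had 0.596 and 0.593 RPKM in ENRI and 0.416 and 0.667 RPKM in WENRC, which overlapped. Fzd3 did not exceed 0.198 RPKM, and Fzd10 had 6 and 0 reads in ENRI and 3 and 0 in WENRC.

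The co-receptors of canonical signalling were transcribed at similar levels in both media. Lrp6 had 1.70 and 1.81 RPKM in ENRI and 1.42 and 1.34 RPKM in WENRC. Lrp5 had 1.72 and 1.27 RPKM in ENRI and 1.91 and 1.83 RPKM in WENRC. The media were apart in opposite directions, by a log2 change of 0.26 ± 0.12 (SE) for Lrp6 and -0.26 ± 0.16 (SE) for Lrp5. Neither was past the threshold in limma (adjusted p = 0.18 and 0.30) or edgeR (0.11 and 0.82), whereas DESeq2 called Lrp6 (0.048). Ryk had 0.883 and 0.524 RPKM in ENRI and 0.899 and 0.844 RPKM in WENRC, and Ror2 had 0.299 and 0.539 RPKM in ENRI and 0.534 and 0.604 RPKM in WENRC. In both genes the higher ENRI value lay between the WENRC values, and the lower one below them. Ror1 had no library above 0.0223 RPKM.

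The secreted antagonists had little transcription. Dkk4, which is itself a target of Wnt signalling in several tissues, had 0.568 and 0.651 RPKM in ENRI and 0.431 and 0.679 RPKM in WENRC, and these ranges overlapped (limma adjusted p = 0.74). Sfrp5 had 17 and 28 reads (0.136 and 0.414 RPKM) in ENRI and 49 and 27 reads (0.443 and 0.682 RPKM) in WENRC. Dkk1 had 0 and 1 reads in ENRI and 0 and 1 in WENRC, so that it was not detectable beyond single reads at this depth. Sfrp1, Sfrp2, Sfrp4, Dkk2 and Dkk3 did not exceed 0.0754 RPKM in any library.

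Over the 17 tested members, limma at an adjusted p of 0.05 called 0, beside 17 of 11602 genes (0.147%). At an unadjusted p under 0.05 it called 5 (Wnt4, Wnt16, Fzd5, Fzd7 and Fzd9), beside 39.0% of all tested genes. On the recovered reads edgeR called 1 as higher in ENRI (5.6% of all tested genes) and 0 as lower (2.84%). With the replicate number as a block, edgeR called 2 as higher (5.32%) and 0 as lower (2.72%), whereas limma called 0 (0.0% of all). DESeq2 called 4 as higher (14.7%) and 0 as lower (8.89%). With a filter of 10 reads in 2 libraries, limma called Wnt4 as higher (3.25% of all) and Fzd2 and Fzd9 as lower (5.65%). After quantile normalization it called Wnt4 as higher (4.37%) and Fzd9 as lower (3.64%). Without the ENRI library of batch 1, limma called 9 members, of which Wnt4, Fzd4 and Fzd5 were higher in ENRI and Wls, Fzd6, Fzd7, Fzd9, Lrp5 and Ryk lower, and 5794 of the 11602 genes in all. The lone ENRI library is there assumed to vary like the WENRC pair. Without that of batch 2 it called 1 (Fzd9) and 685 genes in all, and without either WENRC library 0 and 0. The authors' deposited table gives 3 of the 44 members as higher in ENRI at an FDR of 0.05 (5.65% of all symbols) and 1 as lower (3.06%). The libraries of the media did not overlap in 10 tested members. ENRI was higher in 4 of the 17 (Wnt4, Wnt16, Fzd5 and Lrp6), beside 23.0% of all tested genes, and lower in 6 (Wnt2b, Fzd6, Fzd7, Fzd8, Fzd9 and Lrp5), beside 49.7%. With the members that were not tested, the numbers were 5 (15.1% of all symbols), adding Wnt5a, and 11 (33.4%), adding Wnt3, Wnt5b, Wnt8b, Fzd2 and Sfrp5. The median log2 change was -0.20 over the tested members and -0.21 over all tested genes. After quantile normalization these medians were 0.04 and -0.04. The sign of the change differed between batches in 5 of the 17 (Porcn, Wls, Fzd1, Fzd4 and Dkk4), beside 20.5% of all tested genes. With 2 libraries against 2, an exact permutation test of a single gene cannot go below a two-sided p of 0.333, and none was run.

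**Figure D2:**
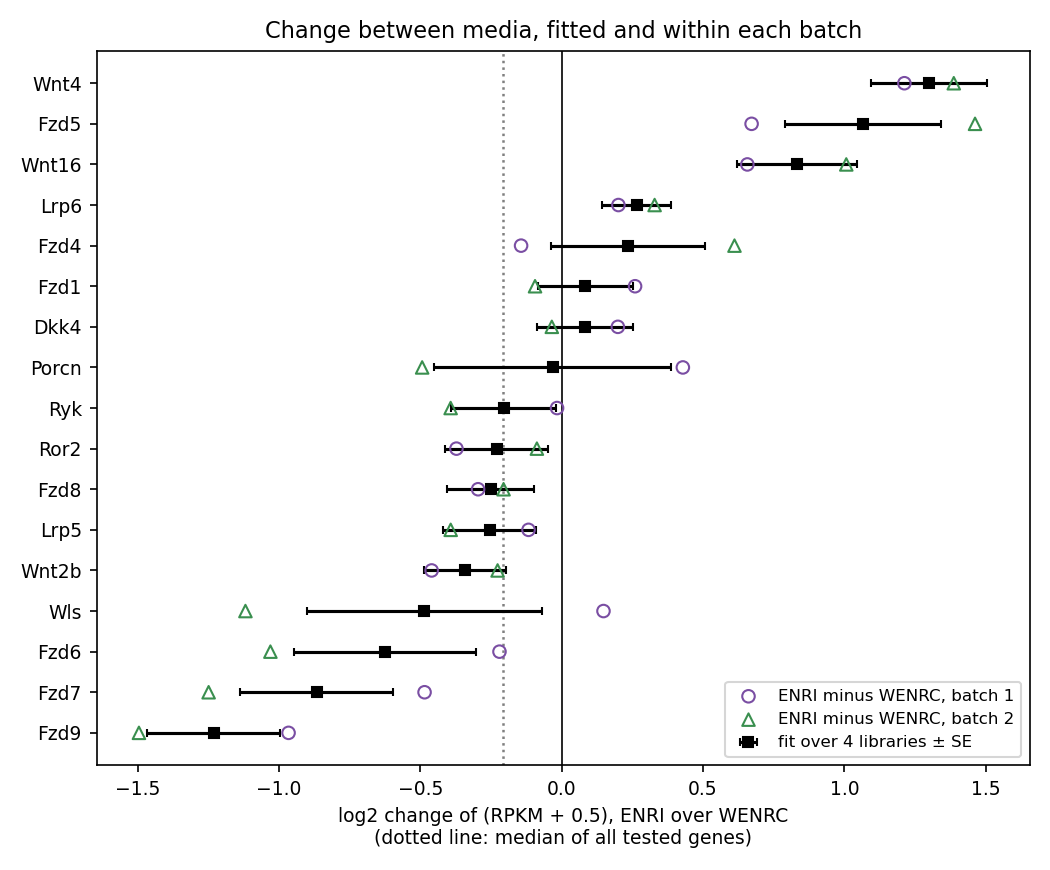
Log2 change of RPKM + 0.5, ENRI over WENRC, for the 17 transcribed members, as the limma estimate over 4 libraries with its SE (squares) and as the difference within batch 1 (circles) and batch 2 (triangles). The dotted line is the median of all tested genes at -0.21, and Wnt4, Fzd5 and Wnt16 lie right of 0 in both batches while Fzd9, Fzd7 and Fzd6 lie left of it in both.

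H3K27me3 at the promoter was taken as overlap of a broad region in the authors' lists with 2 kb on either side of the transcription start. In ENRI, 18 of the 44 promoters (40.9%) were in such a region, beside 8.76% of all symbols. In WENRC, 27 (61.4%) were, beside 10.5%. All 18 promoters marked in ENRI were also marked in WENRC (6.1% of all symbols were marked in both), 9 were marked in WENRC only (4.38%) and 0 in ENRI only (2.66%). The 18 were Wnt1, Wnt2, Wnt2b, Wnt5a, Wnt5b, Wnt6, Wnt7b, Wnt10a, Wnt10b, Wnt11, Wnt16, Fzd2, Fzd9, Ror1, Sfrp1, Sfrp5, Dkk2 and Dkk3. The 9 were Wnt3, Wnt4, Wnt7a, Wnt9a, Fzd1, Fzd3, Fzd10, Sfrp2 and Sfrp4. There was 1 ChIP library per medium, so the difference between media has no replicate check. The libraries also differed in the share of tags inside broad regions, 3.44% in ENRI and 4.45% in WENRC. In the narrow lists, described below, the order was reversed, at 8.55% in ENRI and 6.99% in WENRC.

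By role, most marked promoters were those of ligands and antagonists. Of the 19 ligands, 11 were marked in ENRI and 15 in WENRC. Of the 8 antagonists, 4 were marked in ENRI and 6 in WENRC. Among the 10 frizzled receptors 2 were marked in ENRI and 5 in WENRC, among the 5 co-receptors 1 in each medium (Ror1), and neither Porcn nor Wls was marked in either.

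The count of promoters marked only in WENRC depended on how regions were called. In the narrow lists, which joined windows over shorter distances, 29 promoters were marked in ENRI (19.6% of all symbols) and 33 in WENRC (17.8%), with 28 in both (14.1%), 1 in ENRI only (Wls; 5.51%) and 5 in WENRC only (3.73%). Of the 9 promoters with a broad region only in WENRC, 8 had a narrow region in ENRI, Fzd1 being the exception. The narrow list was longer in ENRI (55544 regions) than in WENRC (33499). The same share over all symbols was not taken, so the 8 of 9 has no background. At Wnt3, Fzd10 and Sfrp2 the narrow ENRI region covered 100% of the 4 kb window, so the mark was called there in both media by the narrow criterion. At Wnt4 it covered 7.6% of the window.

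**Figure D3:**
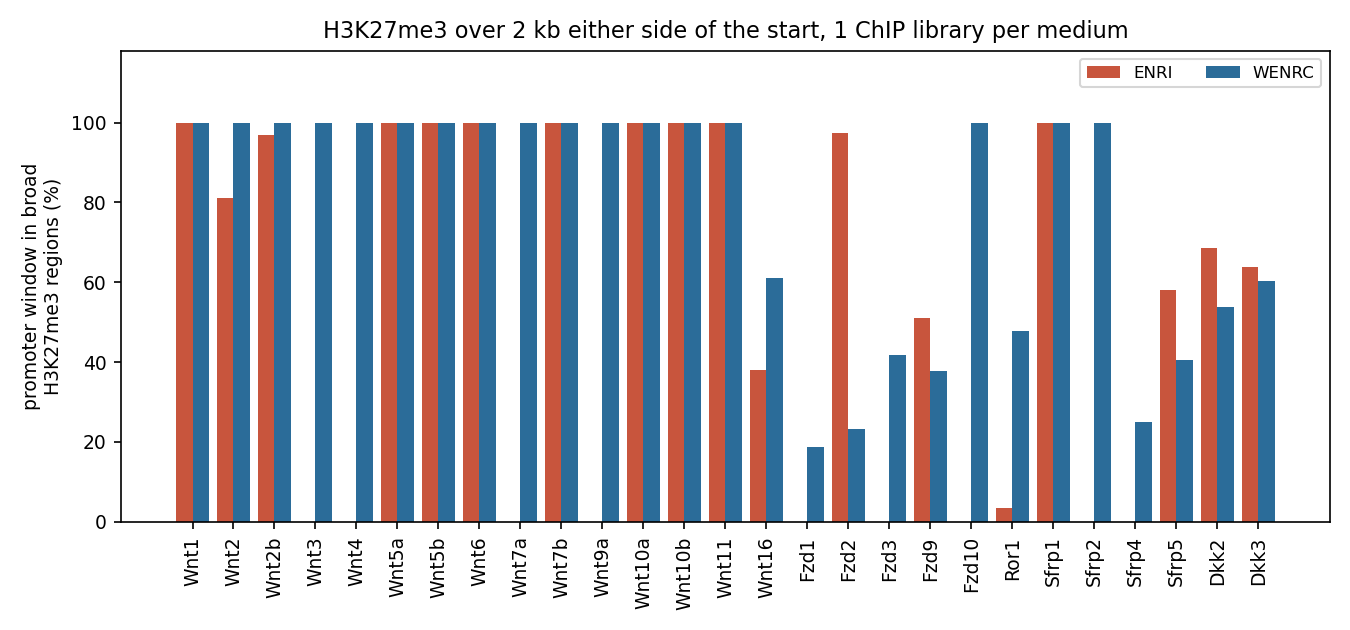
Share of the promoter window (2 kb either side of the start, in %) inside broad H3K27me3 regions for the 27 members marked in either medium, with ENRI in red and WENRC in blue and 1 ChIP library per bar. Of the 18 members with both bars, 9 reach 100% in each medium, and 9 members have a WENRC bar only.

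Among the transcribed members, coverage of the promoter differed most at Wnt4. In WENRC a single broad region of 12.3 kb (chr4:136830070-136842360 in mm9) ran from 3.48 kb before the start to 8.81 kb into the gene, with 5.22 times the input signal. It covered the whole promoter window. In ENRI no broad region touched the window, and the nearest one began 5.15 kb into the gene. The narrow lists gave an ENRI region of 0.5 kb that crossed the upstream edge of the window, 7.6% of which it covered, and WENRC regions of 2.74 and 8.4 kb. Wnt4 thus had the shorter mark in the medium in which its transcription was higher. Not every member had this order. Wnt3 and Wnt2b were lower in ENRI without overlap, and broad regions covered less of their windows there. The shares were 0% in ENRI and 100% in WENRC for Wnt3, and 96.9% and 100% for Wnt2b.

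At Wnt16 the broad region measured 1.69 kb in ENRI and 2.54 kb in WENRC. It began 0.476 kb after the start in ENRI, whereas in WENRC it reached 0.447 kb before it, and covered 38.1% of the window in ENRI and 61.2% in WENRC. Fzd2 and Fzd9 showed the opposite order in both measures. The Fzd2 region measured 3.89 kb in ENRI and 1.29 kb in WENRC and covered 97.3% and 23.2% of the window in ENRI and WENRC. The Fzd9 region measured 2.24 kb in ENRI and 1.51 kb in WENRC and covered 51.0% and 37.7%. These 4 genes were singled out after their values were seen. Fzd2 was not among the transcribed members. Besides Wnt4, Wnt16 and Fzd9, the transcribed and marked members were Wnt2b and Fzd1. The window of Wnt2b was covered to 96.9% in ENRI and 100% in WENRC, and that of Fzd1 to 0% in ENRI and 18.6% in WENRC. Among the 18 promoters marked in both media, 5 were more covered in ENRI (Fzd2, Fzd9, Sfrp5, Dkk2 and Dkk3), 4 more in WENRC (Wnt2, Wnt2b, Wnt16 and Ror1), and 9 equally, all at 100%. By the authors' normalized tags per kb of broad region, 16 of the 18 were lower in ENRI (88.9%), beside 82.7% of the 1464 promoters of all symbols marked in both media. The median ratio of ENRI to WENRC was 0.852 over the 18 and 0.842 over the 1464.

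**Figure D4:**
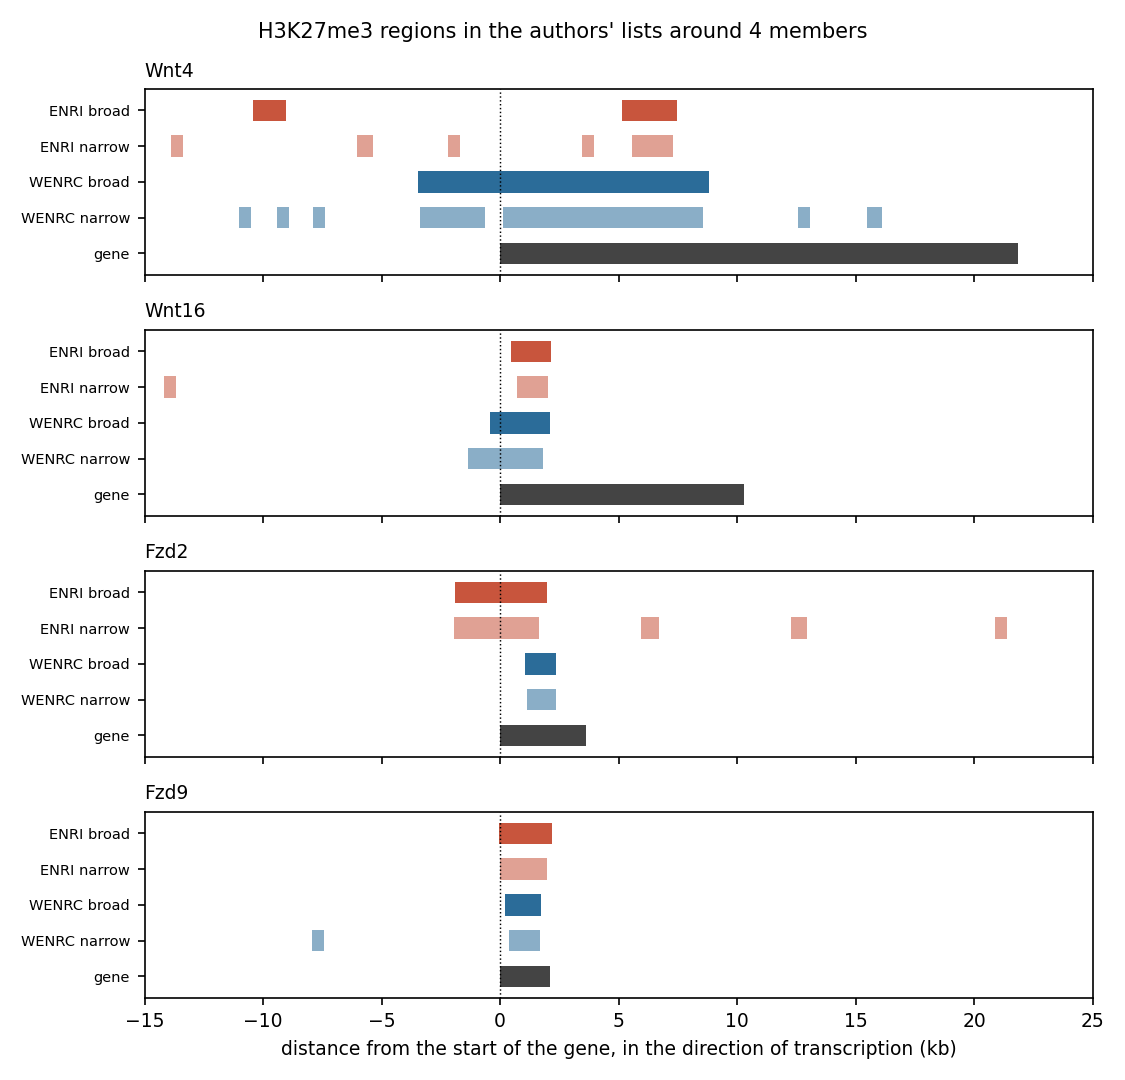
Broad and narrow H3K27me3 regions of the authors' lists around Wnt4, Wnt16, Fzd2 and Fzd9, plotted by distance from the start of the gene (kb, in the direction of transcription), with ENRI in red, WENRC in blue and the gene in black. The WENRC region spans the start of Wnt4 where ENRI has no broad region, and the ENRI region spans the start of Fzd2 where the WENRC region begins 1.07 kb downstream.

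Neighbouring ligand genes shared a region. Wnt6 and Wnt10a, 6.7 kb apart on chromosome 1, lay inside a single broad region of 42.1 kb in ENRI and 44.4 kb in WENRC, the longest at any member in each medium. Wnt1 and Wnt10b, 11.7 kb apart on chromosome 15, shared one of 19.0 kb in ENRI and 37.7 kb in WENRC. The other close pairs were not so joined: Wnt3 and Wnt9b, 24.4 kb apart, and Wnt3a and Wnt9a, 16.2 kb apart, had a broad region at the promoters of Wnt3 and Wnt9a in WENRC only. A broad ENRI region lay 31.9 kb into Wnt3. Because of these shared regions, the 18 and 27 marked promoters corresponded to 16 and 25 separate regions in ENRI and WENRC.

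Most members with the mark were not among the transcribed ones. Of the 27 with a broad region in either medium, 5 (18.5%) were transcribed, beside 16.1% of all marked symbols. Of the 17 with none, 12 (70.6%) were, beside 53.2% of all unmarked symbols. The 12 were all of the transcribed receptors and co-receptors except Fzd1 and Fzd9, together with Porcn, Wls and Dkk4. The nearest region of either kind was 87.3 kb from the start of Fzd5 and 40.1 kb from that of Fzd7, both in the narrow ENRI list. The 5 without mark or transcription were Wnt3a, Wnt8a, Wnt8b, Wnt9b and Dkk1, of which Wnt3a and Wnt8b carried a narrow region in both media and Wnt9b and Dkk1 in WENRC.

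**Figure D5:**
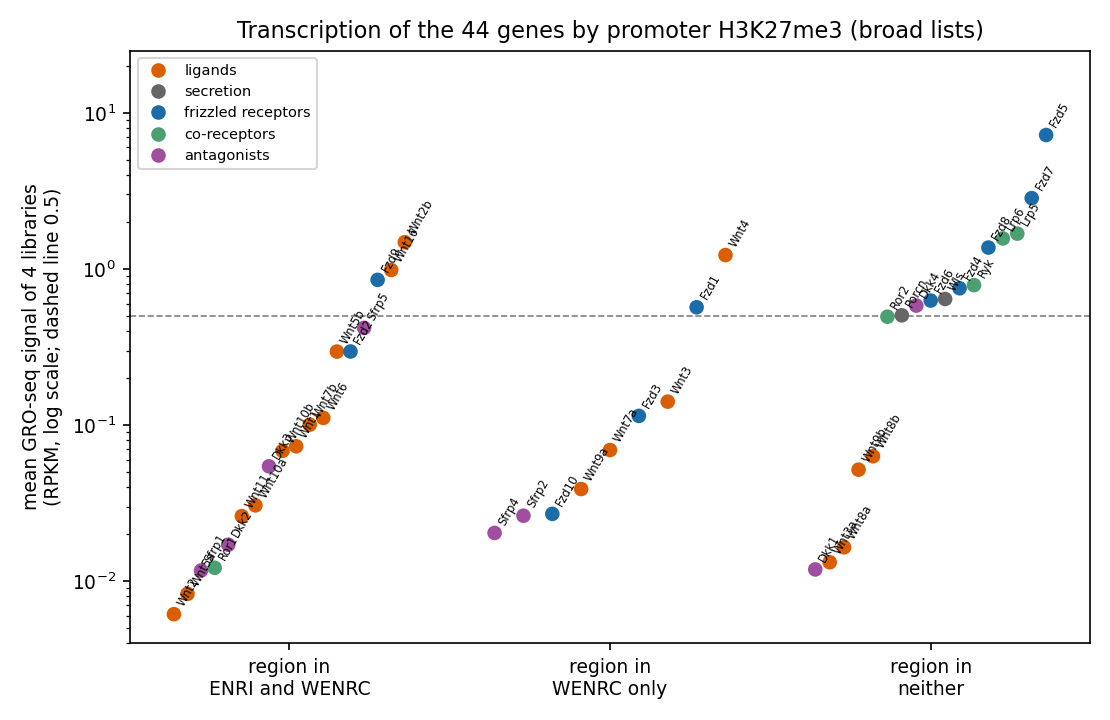
Mean GRO-seq signal over the 4 libraries (RPKM, log scale, dashed line at 0.5) of the 44 members by their broad promoter H3K27me3 call, in order of level within each class and coloured by role. Above the line are 3 members marked in both media (Wnt2b, Wnt16 and Fzd9) and 2 marked in WENRC only (Wnt4 and Fzd1), while the 12 transcribed members marked in neither run from Ror2 at 0.494 to Fzd5 at 7.21 RPKM.

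CpG numbers overlapped between marked and unmarked members. The median number of CpG in the 300-base window was 22 for the 10 members marked in both media (range 10 to 53), 42 for the 7 marked in WENRC only (16 to 58) and 30.5 for the 10 marked in neither (6 to 45). Of the promoters printed above, Wnt4 and Fzd9 were CpG-rich and marked, Fzd5 was CpG-rich and unmarked, and Wnt16 was marked with the fewest CpG of the 6, though above the median of 7 over all windows. The hexamers CTTTGA and CTTTGT, the core letters that TCF and LEF factors recognize, were searched on both strands. At least 1 of them was found in 8 of the 27 windows (29.6%), beside 31.2% of all windows, and of the 6 printed promoters Fzd7 and Wnt3 held CTTTGT.

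The rest of the pathway was described by a list of 45 further genes (R-spondins and their receptors, other secreted modulators, transducers and targets), of which 25 were tested. ENRI was lower without overlap in 17 and higher in 1 (Tcf7l2), beside 49.7% and 23.0% of all tested genes. limma called 0, with 8 at an unadjusted p under 0.05, beside 39.0% of all tested genes. edgeR called 2 (beside 2.84%) and, with the block, 3 (beside 2.72%), all lower in ENRI. DESeq2 called 8 lower (beside 8.89%) and 1 higher (beside 14.7%), and the authors' deposited table gives 7 of the 45 as lower (beside 3.06% of all symbols). Axin2, a feedback inhibitor and general Wnt target, had 0.959 and 0.62 RPKM in ENRI and 7.96 and 11.9 RPKM in WENRC, a log2 change of -3.00 ± 0.27 (SE) with an adjusted p of 0.054 in limma and 0.042 in edgeR. Lgr5, an R-spondin receptor that marks stem cells, had 0.194 and 0.142 RPKM in ENRI and 1.96 and 2.86 RPKM in WENRC (log2 change -2.11 ± 0.19 (SE), adjusted p 0.054 in limma and 0.042 in edgeR).

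Both ubiquitin ligases that clear frizzled receptors from the surface were also lower in ENRI than in WENRC. Znrf3 had 0.434 and 0.23 RPKM in ENRI and 1.22 and 1.22 RPKM in WENRC, and was called by edgeR with the block (adjusted p = 0.042) and not without it (0.0501). DESeq2 called it (adjusted p = 9.0e-05), and the authors' deposited table gives an FDR of 0.0013. Rnf43 had 4.19 and 1.53 RPKM in ENRI and 7.13 and 8.99 RPKM in WENRC. Its adjusted p was 0.097 in limma, 0.15 in edgeR and 0.037 in DESeq2, and the authors' FDR was 0.061. Among the targets, Ascl2 had 0.197 and 0.363 RPKM in ENRI and 1.44 and 1.77 RPKM in WENRC. Ephb2 had 0.97 and 0.571 RPKM in ENRI and 2.54 and 2.55 RPKM in WENRC, and Myc had 7.26 and 2.31 RPKM in ENRI and 8.92 and 13.9 RPKM in WENRC. Their limma adjusted p were 0.056, 0.056 and 0.16, and none passed in edgeR. Both ENRI values of Axin2, Lgr5, Znrf3, Rnf43, Ascl2, Ephb2, Myc and Bcl9 were below both WENRC values. Bcl9, a coactivator of β-catenin, had 0.892 and 0.476 RPKM in ENRI and 1.75 and 1.74 RPKM in WENRC (limma adjusted p = 0.062). Tcf7l2, the main TCF factor of the intestine, had 3.47 and 4.32 RPKM in ENRI and 3.11 and 2.36 RPKM in WENRC (0.19). The secreted inhibitors Notum and Wif1 did not exceed 0.108 RPKM in any library.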

How the data were processed

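GRO-seq signal was deposited by the authors as a single table of scaled read coverage per RefSeq transcript in build mm9, each of the 4 columns summing to 20.0M. Per the file header, reads over gene bodies were counted with HOMER without adjustment and the media compared with edgeR, with batch 1 and 2 as terms. The submitters' processing notes name HOMER 4.3, FastQC, Bowtie and Bowtie2. Low values were whole multiples of a step per column (100% within 0.1), so whole reads were recovered. The 4 deposited RPKM columns were not used. The authors' log2 fold changes, p-values and FDR are quoted as theirs. The edgeR likelihood ratio, a score, was not used. H3K27me3 regions were called by the authors with HOMER against input DNA of the same medium, per the file headers, at 4-fold over input and over the local 10000 bp. The broad lists (6094 regions in ENRI, 5009 in WENRC) joined windows of 1000 bp within 10000 bp, and the narrow lists (55544 and 33499) used 500 bp and 1000 bp. The deposited fold ratio, tag signal and score of each region are the authors' own. The ChIP libraries held 29.8M tags in ENRI and 31.4M in WENRC. The samples of input DNA enter through these calls alone, and those of histone H3 were not used here.

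From the scaled reads, RPKM was recomputed with the column sum as library size, for the longest transcript of each symbol (33022 transcripts in all). The 11602 genes at 0.5 RPKM or more in 2 or more libraries were fitted with limma 3.58.1 (R 4.3.3) on log2(RPKM + 0.5) with a mean trend, without a block, adjusted by Benjamini-Hochberg over all of them. A fold change on this scale understates the change of low genes. edgeR 4.0.16 and DESeq2 1.42.0 were run on the recovered reads. The scripts were tested on simulated data. Columns name a medium and batch, not a mouse. Titles number mice 1 and 2 in both media. The main fit was planned without a block, and the block was an alternative. Deviations of same-batch libraries correlated at 0.0126, but 2 pairs cannot show whether the libraries were paired. The p-values measure the spread between these libraries, and read intervals cover counting error only.

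The members, the lists and the tests were chosen with earlier results of these data known. Members with 0.5 RPKM in 2 libraries were named with every library's value, the others in groups, and singly where marked or high in reads. Of the other pathway genes, 6 were named by choice and up to 4 per direction by size of change among those without overlap. Alternatives covered pseudocounts, filters, scaling, the block, other tests, transcript choice, promoter width, overlap, peak lists and each library left out.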

Additional observations from a re-analysis of the deposited data

How the results depend on the processing

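The number of genes called depended on the test. Against 17 over all tested genes, limma gave 1 with a pseudocount of 0.1 RPKM, 0 without a filter, 1491 with a filter of 10 reads and 929 after quantile normalization. edgeR gave 979 without and 932 with the replicate block, DESeq2 2738, and limma with the replicate block 0 (3839 at an unadjusted p under 0.05). Leaving out a library gave 0 to 5794, the highest without ENRI of batch 1. Of the members, limma called 0, against 3 with the 10-read filter, 2 after quantile normalization, 1 in edgeR, 2 in edgeR with the replicate block, 4 in DESeq2 and 0 to 9 with a library left out. Of the other Wnt pathway genes, limma called 0, against 7, 4, 2, 3 and 9 in the same order and 0 to 14 with a library left out. Deviations of same-batch libraries correlated at 0.0126, but 2 pairs cannot show whether the libraries were paired. The member median of -0.20 was -0.015 without a filter, -0.034 with the 10-read filter, 0.043 after quantile normalization, -0.047 in DESeq2 and -0.18 to 0.012 with a library left out. Without a filter, or with that of 10 reads, 11 members were lower without overlap rather than 6. Transcribed members numbered 9 at 1 RPKM and 8 when all 4 libraries had to pass. Narrow lists marked 29 promoters in ENRI and 28 in both media. Of 238 combinations of a tested member and an alternative, 205 kept direction and side of the threshold, 21 passed it newly and 12 turned direction, in 6 members. These were Porcn (0.0033 with a pseudocount of 1 RPKM, 0.34 after quantile normalization, 0.38 in edgeR without block and in DESeq2) and Ryk (0.043 after quantile normalization), and, with a library left out, Porcn (-0.61 to 0.54), Wls (-1.07 to 0.10), Fzd1 (-0.093 to 0.26), Fzd4 (-0.13 to 0.60), Ryk (-0.42 to 0.012) and Dkk4 (-0.089 to 0.25). The cause was not tested. The WENRC library of batch 2, with the fewest reads, limits what low members can show.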
